A study of Mus musculus with 6 samples.

Results

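Natural killer (NK) cells are innate lymphocytes that kill infected or transformed cells without prior sensitization. Activating receptors read stress ligands and bound antibody, inhibitory receptors read MHC class I on healthy cells, and the balance of both decides whether perforin and granzymes are released from cytotoxic granules. NK cells mature in the bone marrow and circulate in blood. Group 1 innate lymphoid cells (ILC1) are close relatives that stay in tissue, and Eomes and the collagen-binding integrin Itga1 are commonly used to tell these relatives apart.

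The NK cells described here were 254 of 8804 kept cells (2.89%, 95% exact binomial interval 2.55 to 3.26), out of 17560 barcodes in 6 single-cell RNA-seq libraries. Kept cells had 500 genes or more, and no more than 10% of their unique molecular identifiers (UMIs, each standing for 1 captured mRNA molecule) lay on mitochondrial genes. NK cells were chosen by their own transcript counts. Such a cell held a UMI of at least 2 of the 5 markers Ncr1, Klrb1c, Klra8, Prf1 and Gzma and no UMI of Cd3e, Cd3d and Cd3g (T cells), Csf1r (macrophages) or Cd79a (B cells). The rule does not separate NK cells from ILC1, which share most of these markers.

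All libraries came from adult wild-type C57BL6 mice without treatment or transgene. The 4 cortical surface libraries, labelled as brain, hold cells freed by enzyme from the exposed top of the cortex, with the leptomeninges. The 2 bone-associated libraries, labelled as dura and skull, hold cells from the tissue lining the inside of the skull. Each library pooled several mice, so the library is the replicate, the spread between mice is not seen, and p-values measure only the spread between libraries. Mice were not perfused, and viable cells were sorted, so NK cells of the blood and of the tissue cannot be told apart. The methods name collagenase D and dispase II for the dissociation, whereas the sample labels name papain and another brain region. Cortical surface libraries 1 to 4 held 7, 9, 40 and 93 NK cells, and bone-associated libraries 1 and 2 held 25 and 80. The UMIs summed over NK cells were 50322, 112060, 286802 and 651935 in the cortical surface libraries and 168908 and 477198 in the bone-associated libraries. Levels are given as counts scaled to a fixed total of UMIs other than hemoglobin (CPM) in these sums, in library order.

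Cortical surface libraries 3 and 4 stood apart from the other 4 in ways that their labels do not give. Hemoglobin took 84.6% and 71.9% of all UMIs in these libraries, against 0.287% and 0.0908% in cortical surface libraries 1 and 2 and 0.496% and 0.52% in the bone-associated libraries. Within the NK sums the hemoglobin share was 27.3% and 21.4% in cortical surface libraries 3 and 4, and at most 0.00947% elsewhere. UMIs of Y-linked genes were found in 30.9% and 32.3% of the kept cells of these libraries and in 0.0799% to 0.269% of those of the other 4, which hold Xist in 84.5% to 94.4% of cells. The methods state equal numbers of male and female mice in every library, and the Y-linked UMIs go against this for 4 of the 6. Of the NK cells, 10 and 30 in cortical surface libraries 3 and 4 held a Y-linked UMI, and 0 elsewhere. Cortical surface libraries 1 and 2 hold fewer than 10 NK cells each and were left out of the fits, so the fitted comparison of the preparations sets libraries 3 and 4 against both bone-associated libraries. Preparation, sex makeup and red blood cell content cannot be told apart in that fit. For the genes that the results turn on, the levels in cortical surface libraries 1 and 2 are therefore given too, while a fold change given alone rests on libraries 3 and 4 against bone. Pairs of libraries shared 0 to 9 barcodes, and 0 among NK cells.

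The markers that chose the cells are given as a description only. Klrb1c, which encodes the NK1.1 antigen, was found in 93.3% of the NK cells, Ncr1, the activating receptor NKp46, in 87.4%, perforin (Prf1) in 82.3%, granzyme A (Gzma) in 75.6% and the activating receptor Klra8 (Ly49H) in 45.7%. All 5 markers were found in 84 cells, 4 in 81, 3 in 54 and 2 in 35, and 26 of the last 35 carried only Ncr1 and Klrb1c. Gzma was the most abundant marker, at 5882, 3507, 9747 and 8904 CPM in the cortical surface libraries and 7401 and 7635 CPM in the bone-associated libraries. Just outside the rule, 29 cells held a single marker and none of the barred genes. The granule membrane gene Nkg7 was at 372 CPM in those cells, 1226 CPM in the members with 2 markers and 2961 CPM in those with 3 to 5, and Eomes was found in 3.45%, 14.3% and 63.5% of the cells. A further 93 cells held at least 2 markers and a barred gene, a Cd3 gene in 86 of them.

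The label was checked on 20 NK genes that the rule does not use. In all 4 libraries with at least 10 NK cells, 19 of the 20 were higher in NK cells than in CD8 T cells, which are cytotoxic lymphocytes too, and the other, Ncam1, was at or near 0 in both. Tyrobp, the adaptor that couples many activating receptors to signalling, was at 2067, 1856, 3215 and 3119 CPM in the NK cells of the cortical surface libraries and at 2220 and 2467 CPM in those of the bone-associated libraries, against 0 to 28.1 CPM in CD8 T cells. Among 1070 endothelial cells, with a median of 6114 UMIs against 5532 in NK cells, 0 passed the marker rule, which allows a share of up to 0.28%. Gzma was found in 8 of them (0.748%) and the other 4 markers in 0.

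NK cells made up 0.942%, 0.719%, 3.63% and 4.15% of the kept cells in cortical surface libraries 1 to 4, and 2.60% and 3.20% in the bone-associated libraries. The mean was 2.36% ± 1.78 (SD, n = 4) against 2.90% ± 0.425 (SD, n = 2), and the difference lay within the spread (exact permutation test, two-sided, p = 0.8). Against NK and T cells together, a measure that leaves out red blood cells and stroma, the NK share was 19.4%, 32.1%, 23.8% and 30.0% in the cortical surface libraries and 17.0% and 18.2% in the bone-associated libraries. The cortical surface mean was 26.3% ± 5.80 (SD, n = 4) and the bone-associated mean 17.6% ± 0.86 (SD, n = 2). Every cortical surface library lay above both bone-associated libraries. The exact permutation test, two-sided, gave p = 0.133 for n = 4 against 2, the smallest value that the 15 regroupings allow (adjusted over 4 single-value tests, 0.356), so the design cannot pass 0.05. The median depth was 7204, 8952, 6149.5 and 5194 UMIs per NK cell in the cortical surface libraries and 5921 and 4934.5 UMIs in the bone-associated libraries (exact permutation p = 0.267).

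**Figure D1:**
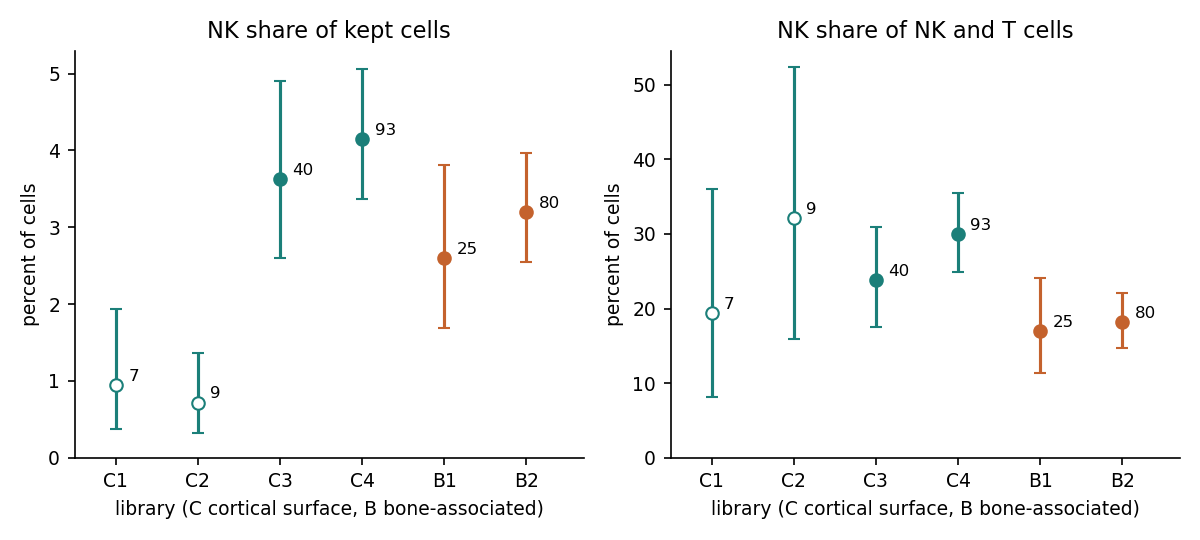
NK cells as a percent of kept cells (left) and of NK and T cells together (right) in each library (C1 to C4 cortical surface, B1 and B2 bone-associated), with 95% exact binomial intervals as bars and the number of NK cells beside each point. Open circles are the libraries with fewer than 10 NK cells, and the points of the right panel lie between 17.0% and 32.1%.

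To ask which genes differed in NK cells between the surface of the cortex and the tissue of the skull, the UMIs summed per library entered the quasi-likelihood test of edgeR. Calls needed a Benjamini-Hochberg adjusted p below 0.05 and a log2 fold change of 1.3 or more in either direction. Fold changes are cortical surface minus bone-associated throughout, on the scale of the fit. Of 5812 genes tested, 440 were called (7.57%), 96 of them higher in the cortical surface libraries (1.65%) and 344 higher in the bone-associated libraries (5.92%). Of the 77 called genes that the naming rule gives, 10 (Cxcr4, Cxcr6, Ifngr1, Nr4a1, Nr4a2, Nr4a3, Nfkbia, Crem, Cdkn1a and Kdm6b) were called in all 22 alternative analyses. DESeq2 did not call 27 of the 77, the fit of all 6 libraries did not call 31, and cortical surface libraries 1 and 2 alone did not call 51 of the 71 tested there. The median log2 fold change over all genes tested was -0.01. Over all 6 libraries, 282 of the 440 did not overlap between the preparations, against 23.3% of all genes tested. The calls were made on 4 of these libraries, where 435 of the 440 did not overlap, so the higher share is no independent test. With all 6 libraries in the fit, 209 of the 440 were also called and 439 kept their direction. With only cortical surface libraries 1 and 2 against bone, 425 of the 440 were tested, 393 kept their direction and 58 were called. Both fits use the bone-associated libraries that made the calls, so the kept directions are not a replication.

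**Figure D2:**
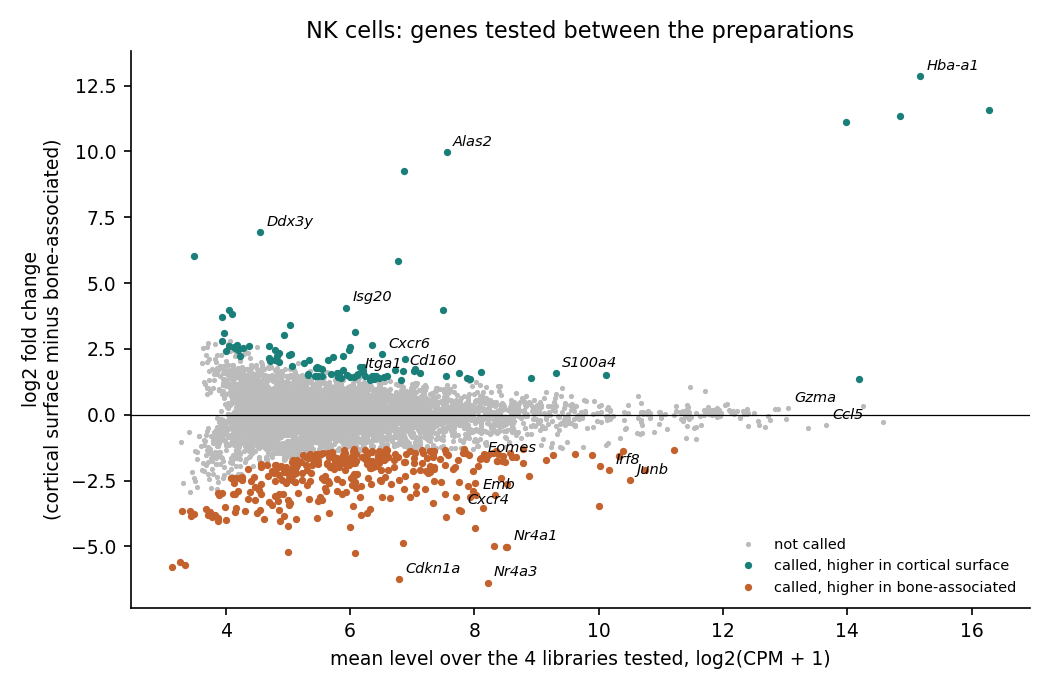
Log2 fold change of each gene tested in NK cells (vertical axis, cortical surface minus bone-associated) against its mean level as log2(CPM + 1) (horizontal axis), for cortical surface libraries 3 and 4 against both bone-associated libraries. Coloured points are the 96 and 344 called genes, with hemoglobin genes at the top and Nr4a3 and Cdkn1a at the bottom.

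The largest differences toward the cortical surface were in genes of red blood cells and of the Y chromosome, and follow the libraries that stood apart. Hba-a1, a hemoglobin chain, was at 85380 and 62622 CPM in cortical surface libraries 3 and 4, at 0 in libraries 1 and 2, and at 5.92 and 10.5 CPM in the bone-associated libraries (log2 fold change 12.86 ± 0.28 SE, adjusted p = 4.78e-18). Hbb-bs, Hba-a2 and Hbb-bt had the same order, at 11.56, 11.33 and 11.12. Alas2, the first enzyme of heme synthesis in red cells, had 271 UMIs in libraries 3 and 4 together and 0 in the bone-associated libraries, which makes it at least 80.9-fold higher against a floor of 3 UMIs over the group. Bpgm, the red cell enzyme of 2,3-bisphosphoglycerate synthesis, was 3.96 higher on the log2 scale. In NK cells with at most 5% of their UMIs on hemoglobin, Bpgm was no longer higher (-0.97, adjusted p = 0.492). Ddx3y, on the Y chromosome, was at 43.2 and 46.8 CPM in libraries 3 and 4 and at 0 in the other 4, at least 9.86-fold higher. Ube2l6, a conjugating enzyme for the ubiquitin-like Isg15, had 136 UMIs against 2 in bone, a ratio of 60.9 with a counting interval of 16.5 to 508. All 6 tested genes of an erythroid list of 8 were called higher in the cortical surface libraries, beside 1.65% of all genes tested. In NK cells with at most 5% of their UMIs on hemoglobin, 467 genes were called, 405 of them among the 440. With hemoglobin genes left out of the fit, 429 genes were called, 423 of them among the 440. Beyond these fits, the part of red cell RNA in other differences was not tested.

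Of 19 tested activating receptors and adaptors, 2 were higher in the cortical surface libraries and 1 in the bone-associated libraries. Over all genes tested the shares were 1.65% and 5.92%, and the list had a median of 0.36. Cd160, a receptor of NK cells and T cells that binds HVEM, was at 119, 116, 202 and 166 CPM in the cortical surface libraries and at 23.7 and 69.2 CPM in the bone-associated libraries. Every cortical surface library was above both bone-associated libraries, and the log2 fold change was 1.67 ± 0.35 SE (adjusted p = 0.00373). It was not called with cells thinned to 1500 UMIs (1.79, adjusted p = 0.0545) or 3000 UMIs (1.27), with cortical surface libraries 1 and 2 alone (0.92) or with the replicate block (1.12). Cd226 (DNAM-1), which binds nectin family ligands, differed by 1.48 ± 0.45 SE (adjusted p = 0.0395), and it overlapped over all 6 libraries and was not called without cortical surface library 3 (1.05) or bone-associated library 2 (0.76). The adaptor Sh2d2a was higher in bone (-1.47 ± 0.27 SE, adjusted p = 0.00124), though by only -0.77 without bone-associated library 2. The most abundant genes of the list were not called. Tyrobp differed by 0.38 ± 0.16 SE, and Fcer1g, the Fc receptor gamma chain, by 0.13 ± 0.16 SE. Klrk1 (NKG2D), which reads stress ligands, was at 1212, 999, 816 and 1079 CPM against 604 and 522 CPM, a difference of 0.72 ± 0.21 SE that stayed below the fold limit (adjusted p = 0.0288).

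None of the 10 tested inhibitory receptors was called, beside 7.57% of all genes tested, and their median was 0.34. For a list of 10, 0 calls lie near that share. DESeq2 called 0 of the 10 as well, beside 163 of all 5812 genes tested, and 4 had an unadjusted p below 0.05 in edgeR. Klra3 was called higher in bone with cortical surface libraries 1 and 2 alone, where 12 were tested, and in the fit of all 6 libraries with the replicate block. Over all genes, 68 of 7160 and 53 of 5996 were called higher in bone in these fits. Klrd1 (CD94), which pairs with NKG2A to read class I peptides, was at 1331, 999, 1089 and 1227 CPM against 758 and 796 CPM, a difference of 0.53 ± 0.19 SE (adjusted p = 0.0829). Klra9 differed by 0.87 ± 0.20 SE and Klra7 by -0.36 ± 0.29 SE. The Ly49 receptors of the Klra family are near-identical copies, so reads can be split between them and these values are uncertain.

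Of 18 tested cytotoxic granule genes, 1 was higher in the cortical surface libraries and 4 in the bone-associated libraries. Over all genes tested the shares were 1.65% and 5.92%, and the list had a median of -0.27. Srgn, the proteoglycan core that holds granzymes in the granule, was at 1272, 732, 753 and 761 CPM in the cortical surface libraries and at 2019 and 1811 CPM in the bone-associated libraries. The preparations did not overlap, and the difference was -1.39 ± 0.18 SE (adjusted p = 3.1e-05). It lay near the fold limit of 1.3 and was not called in 5 alternatives (-1.29 to -1.10), among them upper-quartile normalization and all 6 libraries. The other 3 were serine protease inhibitors of the serpin family: Serpinb9, which shields the cell from its own granzyme B (-1.44 ± 0.23 SE, adjusted p = 0.000281), Serpinb6b (-1.48 ± 0.27 SE) and Serpinb9b (-1.71 ± 0.52 SE). Without bone-associated library 2, Serpinb9 was at -1.19 and Serpinb6b at -0.90, and without cortical surface library 3 Serpinb6b was at -1.25 and Serpinb9b at -1.36. Serpinb9b was at -0.78 without bone-associated library 1, and none of these values was called. Tnfsf10 (TRAIL), a death receptor ligand, was higher in the cortical surface libraries, at 79.5, 80.3, 96.0 and 62.4 CPM against 17.8 and 27.2 CPM (1.56 ± 0.46 SE, adjusted p = 0.0338), and was at 1.29 without cortical surface library 3. The granule proteins themselves were not called. Nkg7 was at 2047, 2160, 2774 and 2741 CPM against 2499 and 2867 CPM (-0.01 ± 0.16 SE), Ctsw, the NK and T cell cathepsin, differed by 0.15 ± 0.20 SE, and Gzmb (granzyme B) by -0.41 ± 0.23 SE. Car2, a carbonic anhydrase, was at 119, 170, 125 and 123 CPM against 320 and 333 CPM, higher in both bone-associated libraries (-1.45 ± 0.25 SE, adjusted p = 0.000527), and was not called in 6 alternatives (-1.32 to -0.87), among them both thinned ones and the one without doublet-like cells.

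Of 20 tested transcription factors of the NK lineage, 6 were higher in the bone-associated libraries and 1 in the cortical surface libraries. Over all genes tested the shares were 5.92% and 1.65%, and the list had a median of -0.60. Eomes, the T-box factor of mature NK cells (chr9:118478212-118486132, GRCm38), was at 179, 161, 120 and 154 CPM in the cortical surface libraries and at 320 and 507 CPM in the bone-associated libraries. All 4 cortical surface libraries were below both bone-associated libraries, and the difference was -1.65 ± 0.27 SE (adjusted p = 0.000301). It was -1.10 without bone-associated library 2, and -1.14 (adjusted p = 0.0886) in NK cells with a Xist UMI. Tbx21 (T-bet), the other T-box factor of NK cells, was at 219, 98.2, 182 and 140 CPM against 160 and 157 CPM, a difference of -0.06 ± 0.27 SE.

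Irf8 is an interferon regulatory factor that NK cells use in maturation and antiviral responses. It had the highest mean CPM of the list, though not the highest level in every library. It was at 497, 1169, 513 and 390 CPM in the cortical surface libraries and at 1137 and 2546 CPM in the bone-associated libraries (-2.12 ± 0.28 SE, adjusted p = 3.14e-05). Cortical surface library 2 lay above bone-associated library 1, so the preparations overlapped over all 6 libraries. Ikzf2 (Helios) was at 14.4 to 19.9 CPM in the cortical surface libraries and at 184 and 56.6 CPM in the bone-associated libraries (-2.79 ± 0.58 SE). Rora differed by -2.25 ± 0.52 SE. It was not called with at least 3 markers or with cells thinned to 1500 or 3000 UMIs (-2.14 to -1.60). Nfil3, required for NK development, differed by -2.25 ± 0.49 SE and Foxo1 by -1.59 ± 0.46 SE, and without bone-associated library 2 they were at -0.59 and -0.46. Foxo1 was not called without either cortical surface library. Zeb2, a factor of terminal maturation, was the member higher in the cortical surface libraries (1.46 ± 0.29 SE, adjusted p = 0.00234), at 1.04 without cortical surface library 4 and at -0.33 (adjusted p = 0.908) with cortical surface libraries 1 and 2 alone. Id2 and Ets1, abundant in all libraries, differed by 0.10 ± 0.25 SE and -0.42 ± 0.24 SE. Id2 ranged from 616 to 1037 CPM in the cortical surface libraries, against 390 to 1169 CPM for Irf8.

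Of 16 tested genes of circulating, mature NK cells, 4 were higher in the cortical surface libraries and 1 in the bone-associated libraries. Over all genes tested the shares were 1.65% and 5.92%, and the list had a median of 0.60. The median turned to -0.66 with cortical surface libraries 1 and 2 alone, where S100a4 was the member called, beside 97 of all 7160 genes tested. S100a4, a calcium-binding protein of migrating cells (chr3:90603771-90606045), was at 1371, 669, 1161 and 755 CPM in the cortical surface libraries and at 332 and 283 CPM in the bone-associated libraries. All 4 lay above both, with a difference of 1.59 ± 0.24 SE (adjusted p = 0.00013). Its neighbour S100a6 had the same order (1.51 ± 0.23 SE), and without cortical surface library 3 the differences were 1.25 and 1.09. Ly6c2 was at 338, 26.8, 614 and 757 CPM against 409 and 143 CPM (1.41 ± 0.32 SE), was at 1.19 without cortical surface library 4 and at 0.83 without bone-associated library 2, and turned to -1.14 (adjusted p = 0.286) with cortical surface libraries 1 and 2 alone. S1pr5, the receptor that lets NK cells leave bone marrow and lymph nodes, was at 119, 17.8, 96.0 and 93.6 CPM against 23.7 and 46.1 CPM and was not called (1.22 ± 0.39 SE, adjusted p = 0.0533). S1pr1, a related exit receptor, was higher in bone (-1.98 ± 0.57 SE, adjusted p = 0.0304) from 30 UMIs there and 9 in cortical surface libraries 3 and 4, and was not called without either of the latter. Itgam (CD11b) and Cd27, whose combination stages NK maturation in mice, differed by 0.05 ± 0.33 SE and -0.73 ± 0.33 SE.

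Among 11 tested genes of early NK cells, 1 was called in each direction, beside 1.65% (cortical surface) and 5.92% (bone) of all genes tested. Emb (embigin), a basigin-like membrane protein, was at 258, 196, 67.2 and 48.8 CPM in the cortical surface libraries and at 616 and 306 CPM in the bone-associated libraries (-3.04 ± 0.35 SE, adjusted p = 6.16e-06). Ltb, the membrane lymphotoxin chain, was at 378, 232, 365 and 279 CPM against 136 and 83.8 CPM (1.58 ± 0.29 SE, adjusted p = 0.00102), and at 1.25 without bone-associated library 2. Neither gene overlapped between the preparations. Emb was not called with cortical surface libraries 1 and 2 alone or with the replicate block. Ltb was not called with cortical surface libraries 1 and 2 alone or with cells thinned to 1500 UMIs.

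Of 12 tested genes of tissue residency and ILC1, 4 were higher in the cortical surface libraries and 2 in the bone-associated libraries, beside 1.65% and 5.92% of all genes tested, with a median of 0.71. In NK cells with a Xist UMI, 13 were tested, with a median of -0.03. Cxcr6 was higher in the cortical surface libraries and 2 were higher in bone, beside 37 and 225 of all 6123 genes tested. Itga1, Tnfsf10 and Inpp4b were not called in these cells. Cxcr6, the receptor for Cxcl16 and a marker of resident lymphocytes (chr9:123806475-123811760), was at 179, 205, 182 and 119 CPM in the cortical surface libraries and at 35.5 and 25.1 CPM in the bone-associated libraries. Every cortical surface library was above both bone-associated libraries. The difference was 2.29 ± 0.40 SE (adjusted p = 0.000637), and it was called in every alternative run. Itga1 (CD49a), which binds collagen (chr13:114953096-115101964), had the same order at 119, 134, 96.0 and 105 CPM against 47.4 and 27.2 CPM. Its difference of 1.54 ± 0.40 SE (adjusted p = 0.0169) was not called without cortical surface library 4 (1.43, adjusted p = 0.171) or bone-associated library 2 (1.16, adjusted p = 0.113). It was also not called in NK cells with a Xist UMI (1.20), without doublet-like cells (1.28), with at least 3 markers (1.42), in DESeq2 (1.48), with cortical surface libraries 1 and 2 alone (1.68) or with the replicate block (1.85). Inpp4b, a phosphatase of phosphoinositide signalling, differed by 1.81 ± 0.39 SE, and Tnfsf10, given above with the cytotoxic genes, is also a member. Neither of these was called in DESeq2, with cortical surface libraries 1 and 2 alone or with the replicate block. In DESeq2, 1 member of the list (Cxcr6) was higher in the cortical surface libraries and 2 were higher in bone. DESeq2 called 28 and 135 of all 5812 genes in these directions. Rgs1 and Rgs2, regulators of G protein signalling, were the members higher in bone (-1.56 ± 0.24 SE and -2.71 ± 0.31 SE). Rgs2 was at 393 CPM in cortical surface library 2, above the 284 CPM of bone-associated library 1, and was not called with all 6 libraries (-1.52), with cortical surface libraries 1 and 2 alone or with the replicate block. Rgs1 was at 517 and 741 CPM in cortical surface libraries 1 and 2 against 154 and 209 CPM in libraries 3 and 4, and at 456 and 591 CPM in the bone-associated libraries, so it overlapped, and it was at -1.21 without bone-associated library 2.

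Single NK cells showed how these genes went together, as a description in which cells of a library are not replicates. Cxcr6 was found in 35 of 149 NK cells (23.5%, 95% exact interval 16.9 to 31.1) of the cortical surface and in 8 of 105 (7.62%, 3.35 to 14.5) of the bone-associated libraries. In cells that should lack it the share was 0.187% of 1070 endothelial cells and 0.126% of 794 B cells, the latter with a median of 4441.5 UMIs. Itga1 was found in 32 (21.5%) and 11 (10.5%) of the NK cells and in 1.39% of B cells, while 66.6% of endothelial cells held it. By library the Itga1 share was 17.5% and 20.4% in cortical surface libraries 3 and 4, 20.0% in bone-associated library 1 and 7.5% in bone-associated library 2. A UMI of either gene was present in 44 cortical surface NK cells (29.5%) and 14 bone-associated ones (13.3%), and of both in 23 and 5. In libraries 1 to 4 and bone-associated libraries 1 and 2 the share with either was 42.9%, 55.6%, 32.5%, 24.7%, 20.0% and 11.2%. Intervals on shares of cells cover counting error only.

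The NK cells with Cxcr6 or Itga1 rarely held Eomes, in 7 of 44 (15.9%) and 3 of 14 (21.4%), against 60 of 105 (57.1%) and 74 of 91 (81.3%) of the NK cells with neither. S1pr5 was found in 6.82% and 7.14% of them and in 41.0% and 20.9% of the others, and Itgam in 9.09% and 7.14% against 44.8% and 39.6%. Gzma, a rule marker and so no test, was found in 13.6% and 21.4% against 95.2% and 91.2%. These cells were also deeper, with medians of 7867 and 7388.5 UMIs against 5019 and 4972. Cells with and without either gene were not compared at matched depth, and the part of depth in these shares was not tested. Among the cells with neither gene, Eomes was found in 3 of 4, 4 of 4, 13 of 27 and 40 of 70 cells of the cortical surface libraries and in 15 of 20 and 59 of 71 cells of the bone-associated libraries. By Cd27 and Itgam, cortical surface NK cells were 46 with Cd27 only, 9 with both, 42 with Itgam only and 52 with neither, and bone-associated NK cells 35, 11, 26 and 33.

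With every NK cell thinned to 1500 UMIs, which left out 1 cell, Eomes was found in 17.6% of cortical surface and 44.8% of bone-associated NK cells, from 45.0% and 73.3% before thinning. Cxcr6 was found in 12.2% and 3.81%, Itga1 in 10.1% and 3.81%, and S1pr5 in 14.9% and 3.81%. Tbx21 was found in 19.6% and 18.1%, Cd27 in 11.5% and 18.1%, and Itgam in 16.2% and 20.0%.

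Of 21 tested genes of trafficking, 1 was higher in the cortical surface libraries, the Cxcr6 given above, and 2 in the bone-associated libraries. Over all genes tested the shares were 1.65% and 5.92%, and the list had a median of 0.05. Cxcr4, the receptor for Cxcl12 that holds lymphocytes in the bone marrow (chr1:128588199-128592293), was at 19.9, 53.5, 38.4 and 31.2 CPM in the cortical surface libraries and at 373 and 434 CPM in the bone-associated libraries. The highest cortical surface library was far below the lower bone-associated library. The difference was -3.64 ± 0.30 SE (adjusted p = 7.58e-08), and Cxcr4 was called in every alternative run. After thinning to 1500 UMIs it was found in 4.05% of cortical surface and 41.0% of bone-associated NK cells, while 3.74% of endothelial cells held it without thinning. The other called gene was S1pr1. The abundant adhesion genes were not called: Selplg, the selectin ligand, differed by -0.60 ± 0.20 SE, Itgb1 by 0.55 ± 0.21 SE and Itgb2, the chain of the leukocyte integrins, by 0.48 ± 0.24 SE.

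**Figure D3:**
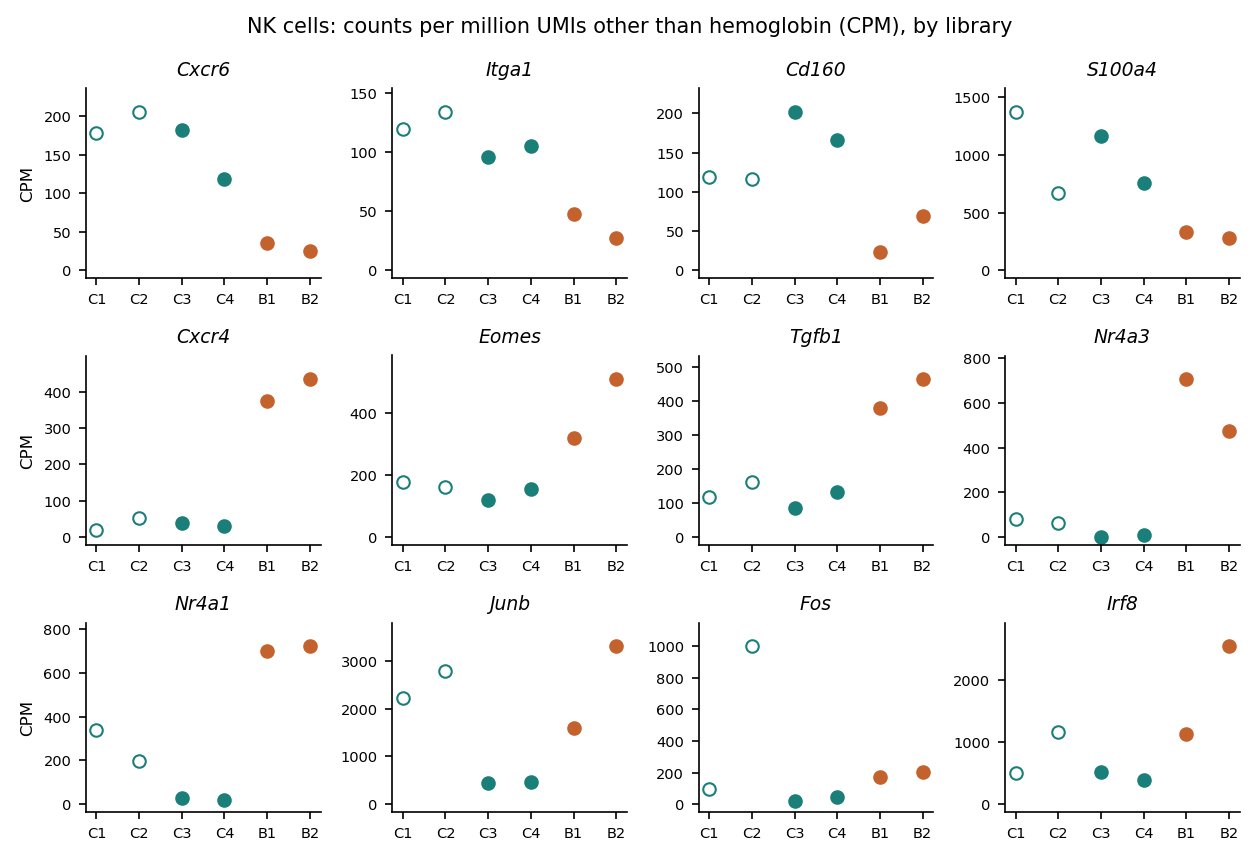
Level of 12 genes in the NK cells of each library in CPM (C1 to C4 cortical surface, B1 and B2 bone-associated), with open circles for the libraries with fewer than 10 NK cells. Cxcr4, Eomes, Tgfb1, Nr4a3 and Nr4a1 are lower and Cxcr6, Itga1, Cd160 and S100a4 higher in all 4 cortical surface libraries than in either bone-associated library, whereas Junb, Fos and Irf8 overlap.

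Of 9 tested cytokines and chemokines, Ltb was higher in the cortical surface libraries and Tgfb1 in the bone-associated libraries. Over all genes tested the shares were 1.65% and 5.92%, and the list had a median of 0.01. Tgfb1, a cytokine that restrains NK cells and favours ILC1, was at 119, 161, 86.4 and 133 CPM in the cortical surface libraries and at 379 and 463 CPM in the bone-associated libraries (-1.94 ± 0.26 SE, adjusted p = 4.55e-05). The preparations did not overlap. Ccl5, the most abundant chemokine, was at 9598, 5060, 10304 and 12460 CPM against 13399 and 15729 CPM, a difference of -0.41 ± 0.15 SE that was not called (adjusted p = 0.0837). Ccl4 differed by -0.35 ± 0.32 SE, Xcl1, which draws cross-presenting dendritic cells, by -0.19 ± 0.20 SE, and Ifng by 0.01 ± 0.44 SE. Ifng was at 497, 214, 125 and 131 CPM in the cortical surface libraries and at 23.7 and 180 CPM in the bone-associated libraries, which differed from each other by more than the preparations did. Of 23 tested cytokine receptors and their signalling genes, 2 were higher in the bone-associated libraries, beside 5.92% of all genes tested. Ifngr1, the ligand-binding chain of the interferon gamma receptor, was at 656, 562, 494 and 513 CPM against 1356 and 1427 CPM (-1.52 ± 0.19 SE, adjusted p = 1.76e-05). Socs3, an inhibitor of cytokine signalling, differed by -3.24 ± 0.67 SE, and by -1.18 (adjusted p = 0.502) without bone-associated library 2.

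The immediate-early genes, which cells switch on within minutes of stimulation or of tissue dissociation, were the list with the most calls. Of 23 tested, 18 were called higher in the bone-associated libraries and 0 in the cortical surface libraries. Over all genes tested the shares were 5.92% and 1.65%. The list had a median of -2.09 against -0.01 over all genes tested. The median was -0.94 with all 6 libraries and -0.20 with cortical surface libraries 1 and 2 alone. In the latter fit 5 were called higher in bone and 2, Fos and Jun, higher in the cortical surface libraries. Of all 7160 genes tested there, 68 were called higher in bone and 29 in the cortical surface libraries. The Nr4a orphan nuclear receptors, which follow antigen receptor and cyclic AMP signalling, were among the members with the largest differences. Nr4a1 was at 338, 196, 28.8 and 19.5 CPM in the cortical surface libraries and at 699 and 721 CPM in the bone-associated libraries (-5.01 ± 0.31 SE, adjusted p = 7.96e-10). Nr4a2 was at 59.6, 250, 24 and 21.5 CPM against 634 and 782 CPM (-5.03 ± 0.31 SE). Nr4a3 was at 79.5, 62.5, 0 and 9.75 CPM against 705 and 472 CPM (-6.37 ± 0.45 SE, adjusted p = 5.16e-09). These 3 genes lay higher in both bone-associated libraries than in any cortical surface library.

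The promoters of these 3 genes are shown because the genes moved together, and because Crem, which encodes a factor of the family that binds the cyclic AMP response element, was called too. The sequences are the 250 bases before the RefSeq start, 5′ to 3′ on the strand of the gene (GRCm38.p6), at chr15:101266596-101266845 on the plus strand for Nr4a1, chr2:57124004-57124253 on the minus strand for Nr4a2 and chr4:48045055-48045304 on the plus strand for Nr4a3. Capitals mark TGACG or its reverse complement CGTCA, the half-site of the cyclic AMP response element.

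Nr4a1: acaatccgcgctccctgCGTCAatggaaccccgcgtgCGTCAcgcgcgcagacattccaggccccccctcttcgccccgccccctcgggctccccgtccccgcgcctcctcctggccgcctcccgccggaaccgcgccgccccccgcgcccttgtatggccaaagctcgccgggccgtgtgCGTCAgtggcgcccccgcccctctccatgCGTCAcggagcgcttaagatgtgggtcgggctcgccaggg

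Nr4a2: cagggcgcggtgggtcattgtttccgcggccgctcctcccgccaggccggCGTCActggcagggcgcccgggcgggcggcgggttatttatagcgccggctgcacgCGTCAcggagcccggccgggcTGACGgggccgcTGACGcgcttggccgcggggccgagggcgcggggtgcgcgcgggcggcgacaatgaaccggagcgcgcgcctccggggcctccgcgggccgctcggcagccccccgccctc

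Nr4a3: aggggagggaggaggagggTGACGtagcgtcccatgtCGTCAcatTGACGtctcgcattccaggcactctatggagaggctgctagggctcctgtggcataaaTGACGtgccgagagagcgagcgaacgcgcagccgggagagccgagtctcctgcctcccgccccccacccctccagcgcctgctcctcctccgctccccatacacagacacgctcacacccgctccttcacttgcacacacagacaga

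Each of the 3 promoters held 4 half-sites, and none held the full element TGACGTCA. A half-site on either strand was in 31.7% of the 4625 promoters of tested genes with a RefSeq entry, in 38.5% of 278 of the genes called higher in bone and in 20.0% of 80 of those called higher in the cortical surface. Among the called immediate-early genes it was in 11 of 15. The full element, which contains the half-site, was in 3.33%, 3.6% and 0 of the first 3 of these sets and in 2 of the 15 immediate-early promoters. Over all 27025 promoters of the same length the shares were 17.9% and 1.62%. Any part of these sites or of Crem in the differences was not tested.

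Crem itself was at 0, 89.2, 14.4 and 21.5 CPM in the cortical surface libraries and at 770 and 461 CPM in the bone-associated libraries (-4.99 ± 0.37 SE, adjusted p = 9.6e-09). Other large differences toward bone were in Kdm6b, a histone H3K27 demethylase (-4.31 ± 0.31 SE), Vegfa, the vascular growth factor (-4.86 ± 0.52 SE), and Fabp5, a fatty acid-binding protein (-4.28 ± 0.67 SE). Cdkn1a (p21), an inhibitor of the cell cycle, had 160 UMIs in the bone-associated libraries and 2 in cortical surface libraries 3 and 4, a ratio of 89.3 with a counting interval of 24.3 to 744. The ETS repressor Erf had 40 UMIs against 1, a ratio of 44.6 with an interval of 7.56 to 1807. Crem, Cdkn1a, Kdm6b, Erf and Fabp5 did not overlap over all 6 libraries, whereas Vegfa, at 199 CPM in cortical surface library 1 and 148 CPM in bone-associated library 1, did. Erf, Fabp5 and Vegfa were not called with cortical surface libraries 1 and 2 alone or with the replicate block. Fabp5 was at -2.37 to -2.13 there and Vegfa at -1.38 to -1.23. Erf was not called in DESeq2 either.

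For most called immediate-early genes, the Nr4a genes among them, cortical surface libraries 1 and 2 did not resemble libraries 3 and 4. In 14 of the 18 called genes, libraries 1 and 2 were both above libraries 3 and 4, and only 5 (Nr4a1, Nr4a2, Nr4a3, Jund and Nfkbia) were higher in both bone-associated libraries than in all 4 cortical surface libraries, a pattern that 12.3% of all tested genes had. Of all 344 genes called higher in bone, 166 had libraries 1 and 2 above libraries 3 and 4, and 235 were higher in both bone-associated libraries than in all 4 cortical surface libraries. The calls rest on low levels in libraries 3 and 4, which favours the first pattern, and its share over all tested genes was not taken. Junb, an AP-1 subunit, was at 2226 and 2784 CPM in cortical surface libraries 1 and 2, at 451 and 464 CPM in libraries 3 and 4, and at 1599 and 3303 CPM in the bone-associated libraries (-2.48 ± 0.26 SE). Fos was at 99.4, 999, 19.2 and 42.9 CPM against 172 and 205 CPM (-2.50 ± 0.35 SE, adjusted p = 6.89e-05), and with cortical surface libraries 1 and 2 alone it was higher on the cortical side (1.50, adjusted p = 0.0111). Dusp1, a phosphatase of MAP kinases, was at 651 CPM in cortical surface library 2 and at 24 to 39.7 CPM in the other 3, against 94.7 and 346 CPM. With all 6 libraries in the fit, 5 immediate-early genes were called higher in bone, beside 175 of all 5996 genes tested. Klf4 and Atf3 rested on 2 UMIs each in cortical surface libraries 3 and 4, with ratios of 37.9 (counting interval 10.1 to 320) and 16.7 (4.25 to 145).

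Jund (-1.59 ± 0.18 SE) and Nfkbia, the inhibitor of NF-kappaB (-2.42 ± 0.34 SE), were the called members outside the Nr4a family that did not overlap. The remaining called members were Fosb, Egr1, Dusp2, Ier2, Zfp36, Nfkbiz, Tnfaip3 and Ppp1r15a, at -3.13 to -1.53. Dusp2 was at 1536 CPM in bone-associated library 2 and 237 CPM in bone-associated library 1, and at 0.51 without the former. Without that library Ier2 was at -0.95, Zfp36 at -0.01 and Nfkbiz at -0.83. Without cortical surface library 4, Egr1 was at -0.91, Dusp2 at -1.05 and Nfkbiz at -1.28, and Zfp36 was at -1.27 without cortical surface library 3.

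As a summed list, immediate-early genes took 0.801%, 1.24%, 0.307% and 0.287% of the non-hemoglobin UMIs of NK cells in the cortical surface libraries and 0.903% and 1.42% in the bone-associated libraries. Of all NK UMIs, with hemoglobin, the mean was 0.621% ± 0.492 (SD, n = 4) against 1.16% ± 0.368 (SD, n = 2; exact permutation p = 0.267). Cortical surface libraries 3 and 4 were also the lowest in other cells: kept cells other than NK and T cells were at 2.35%, 2.50%, 0.703% and 0.660% against 1.86% and 1.94%, and CD8 T cells at 0.327%, 0.795%, 0.195% and 0.203% against 0.876% and 0.830%. The part of the dissociation in these differences was not tested.

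**Figure D4:**
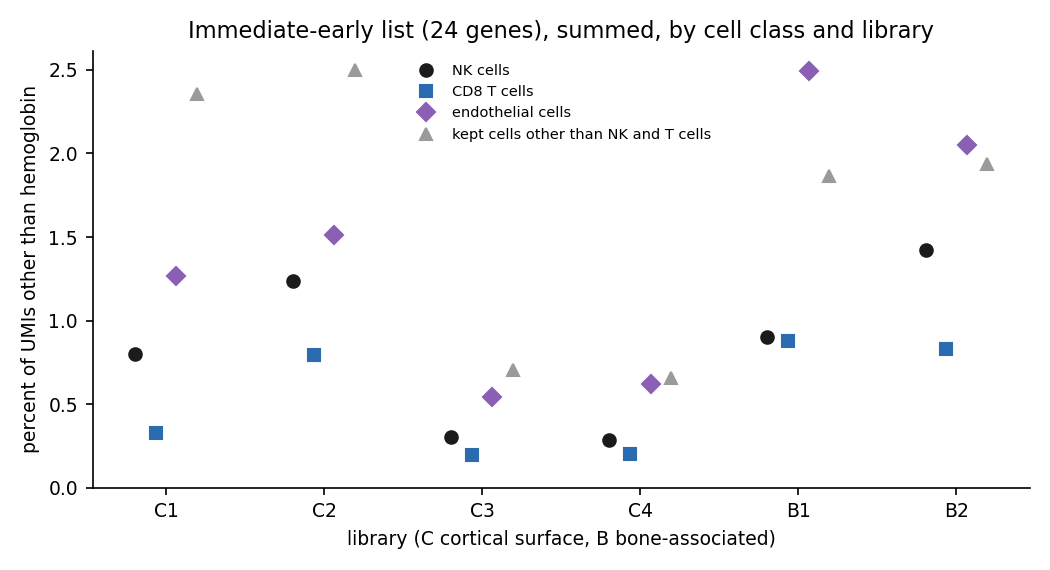
Summed immediate-early genes as a percent of UMIs other than hemoglobin (vertical axis) by library (horizontal axis, C cortical surface, B bone-associated), for NK cells, CD8 T cells, endothelial cells and all other kept cells. In every class libraries C3 and C4 are the lowest, with NK cells at 0.307% and 0.287%.

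Of 11 tested heat shock genes, 2 were called higher in bone, beside 5.92% of all genes tested. With all 6 libraries 0 were called in either direction, beside 219 of all 5996 genes tested. With cortical surface libraries 1 and 2 alone, Hspa1a and Hspa1b were called higher in the cortical surface libraries and Hspd1 in bone. Of all 7160 genes tested in that fit, 29 and 68 were called in these directions. Dnaja1, a co-chaperone of Hsp70, was at 437, 669, 456 and 396 CPM against 1001 and 1285 CPM (-1.50 ± 0.21 SE, adjusted p = 5.78e-05), and at -1.19 without bone-associated library 2. Hsph1, of the Hsp110 family, differed by -1.56 ± 0.39 SE, overlapped, and was not called without cortical surface library 3 (-1.36) or bone-associated library 1 (-1.22). The summed list took 0.825% and 0.783% of non-hemoglobin UMIs in cortical surface libraries 1 and 2, 0.406% and 0.417% in libraries 3 and 4, and 0.765% and 0.775% in the bone-associated libraries. Here too libraries 3 and 4 were the low ones.

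Of 16 tested interferon-induced genes, 3 were higher in the cortical surface libraries, beside 1.65% of all genes tested, with a median of 0.08. In NK cells with at most 5% of their UMIs on hemoglobin, 1 of 17 was called (Ifi206), beside 467 of all 5871 genes tested. There Xaf1 was not called, and Isg20 did not pass the detection minimum. Isg20, an exonuclease, was at 0, 26.8, 139 and 93.6 CPM against 0 and 8.38 CPM (4.07 ± 0.59 SE, adjusted p = 9.85e-05), which overlaps through cortical surface library 1. Ifi206 was at 38.4 to 64.4 CPM against 11.8 and 10.5 CPM (2.25 ± 0.57 SE), and Xaf1 at 19.9 to 71.4 CPM against 5.92 and 12.6 CPM (1.99 ± 0.58 SE). Both kept apart over all 6 libraries, but neither was called without cortical surface library 4 or bone-associated library 2, and Xaf1 was not called without cortical surface library 3.

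Cell cycle genes were scarce. Mki67 was found in 3 of 149 and 2 of 105 NK cells. Of 7 tested proliferation genes, 3 were higher in bone, beside 5.92% of all genes tested. They were Stmn1, a microtubule regulator (-1.65 ± 0.33 SE), the replication clamp Pcna (-1.79 ± 0.42 SE) and the centromere histone Cenpa (-2.31 ± 0.58 SE). Stmn1 was at 39.7, 44.6, 76.8 and 52.7 CPM against 231 and 157 CPM. Without cortical surface library 4 it was -1.35 (adjusted p = 0.107), and Cenpa was -1.17 without bone-associated library 2.

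Markers of other cells were low in the NK sums apart from the red cell genes. The T cell list of 12 summed to 616, 678, 528 and 535 CPM in the cortical surface libraries and to 574 and 616 CPM in the bone-associated libraries, mostly Trbc1, a constant region gene of the T cell receptor, and Cd8a had 0 UMIs. Cd28 was the called member (-1.67 ± 0.37 SE) and overlapped, at 119 and 214 CPM in cortical surface libraries 1 and 2. The B cell list of 9 summed to 60.8 to 159 CPM, led by Ighm, with Pax5 at 0. The myeloid list of 13 summed to 99.4, 268, 317 and 129 CPM against 53.3 and 71.3 CPM, led by Apoe. C1qb, a complement chain of macrophages, was called higher in the cortical surface libraries from 18 UMIs against 1, a ratio of 16.1 with a counting interval of 2.55 to 672. Acta2 and Tagln of smooth muscle were called higher in bone from 16 and 15 UMIs against 1 each, with ratios of 17.9 (2.77 to 749) and 16.7 (2.58 to 705). Their list of 9 genes of smooth muscle cells and pericytes summed to 99.4, 196, 154 and 230 CPM against 94.7 and 71.3 CPM, the other way. Its member Kcnj8 was called higher in the cortical surface libraries in NK cells with at most 5% hemoglobin UMIs. Ttr of choroid plexus was at 0 to 31.2 CPM against 77.0 and 73.4 CPM (-1.41 ± 0.42 SE), with Folr1 and Kcne2, defining markers of that tissue, at 0. Cd28, C1qb, Acta2, Tagln and Ttr each lost their call without cortical surface library 3 or 4, or both. Without doublet-like cells, those with genes of another cell type, 400 genes were called, 343 of them among the 440. Beyond this alternative, the part of such cells in the comparison was not tested. The ILC2 list of 9 summed to 83.9 to 143 CPM in the cortical surface libraries and to 296 and 228 CPM in the bone-associated libraries, with Il1rl1 and Il17rb at 0. Gata3, its member of highest level, was at 119, 89.2, 76.8 and 58.5 CPM against 101 and 119 CPM. Rora, given above with the transcription factors, is also a member of this list and was its called gene.

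To ask which of these differences NK cells did not share with T cells of the same libraries, CD8 T cells (26, 69, 28 and 41 cells in cortical surface libraries 3 and 4 and bone-associated libraries 1 and 2) were fitted together with NK cells, with the library as a block. The difference between the preparations differed between the cell types for 28 of 6817 genes (0.411%), and 415 passed an unadjusted p of 0.05. In CD8 T cells alone, 0.632% of 6799 genes were called higher in the cortical surface libraries and 3.6% higher in bone.

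Cxcr4 was at 39.3 and 46.0 CPM in the CD8 T cells of cortical surface libraries 3 and 4 and at 83.1 and 179 CPM in those of the bone-associated libraries, a log2 fold change of -1.57 against -3.64 in NK cells. The difference of these was -2.06 ± 0.49 SE (adjusted p = 0.0129). Cxcr6 was at 213, 264, 162 and 222 CPM in CD8 T cells, with a fold change of 0.37 against 2.29 in NK cells (1.96 ± 0.45 SE, adjusted p = 0.0104). Irf8 was at 2.88 to 22.5 CPM in CD8 T cells (-4.71 ± 0.73 SE, adjusted p = 4.67e-06), far below its level in NK cells. On the scale of the fit, CD8 T cells were at 22.5 and 19.0 CPM in cortical surface libraries 3 and 4. In the bone-associated libraries they were at 3.88 and 2.85 CPM. That order is opposite to the NK cells, and the bone-associated levels lie near the floor. Emb was higher in bone in both cell types, by -3.04 in NK cells and -1.72 in CD8 T cells (-1.27 ± 0.33 SE). Fos went further in CD8 T cells, at -4.58 against -2.50 (2.17 ± 0.54 SE). Ccl5 differed by -0.52 ± 0.13 SE between the cell types.

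Among the other NK genes of the 28, Stmn1 was at -1.86 ± 0.45 SE, Fcer1g at -2.89 ± 0.44 SE, Klre1 at -1.84 ± 0.47 SE and Klra7 at -5.28 ± 0.80 SE. In NK cells Fcer1g and Klra7 were called in neither direction. In CD8 T cells Fcer1g was at 44.9, 102, 0 and 17.3 CPM and Klra7 at 112, 38.3, 0 and 2.88 CPM, higher in both cortical surface libraries. Tmem176b and Tmem176a were at 4.16 ± 0.67 SE and 2.89 ± 0.67 SE, Trdc at 3.39 ± 0.68 SE, Hspa1a at 2.52 ± 0.66 SE and Apoe at 3.22 ± 0.59 SE. Without bone-associated library 2, Trdc was at 0.33, Hspa1a at 1.68 and Apoe at -0.14. Hspa1a was at 1.17 without cortical surface library 4, and Klre1 at -0.35 without cortical surface library 3. The 5 largest values, Myl9 (10.37), Mgp (8.74), Tpm2 (7.81), Sdc4 (6.99) and Igfbp7 (5.67), also have their highest CD8 T cell level in bone-associated library 2, where Mgp, a matrix protein of stromal cells, was at 2342 CPM against 4.16 CPM in bone-associated library 1. In NK cells Mgp was at 0 to 25.1 CPM over the 6 libraries, and without bone-associated library 2 its value was 0.57 (adjusted p = 0.996). Without that library Tpm2 was at 4.40 and Sdc4 at -0.86, neither of them called, and Myl9 and Igfbp7 did not pass the detection minimum. Of the 20 genes named here, 1 (Klra7) had a value and stayed called with each library left out in turn, but it was not called against all T cells (-0.98). Of 18 genes tested against all T cells, 9 were not called, among them Cxcr4 (-1.24), Irf8, Emb and Fos. Cxcr4 was at -1.71 without cortical surface library 4 (adjusted p = 0.925) and at -1.80 without bone-associated library 1 (adjusted p = 0.117). Cxcr6 was at 1.60 without cortical surface library 3 (adjusted p = 0.42) and at 1.21 without bone-associated library 2 (adjusted p = 0.731).

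**Figure D5:**
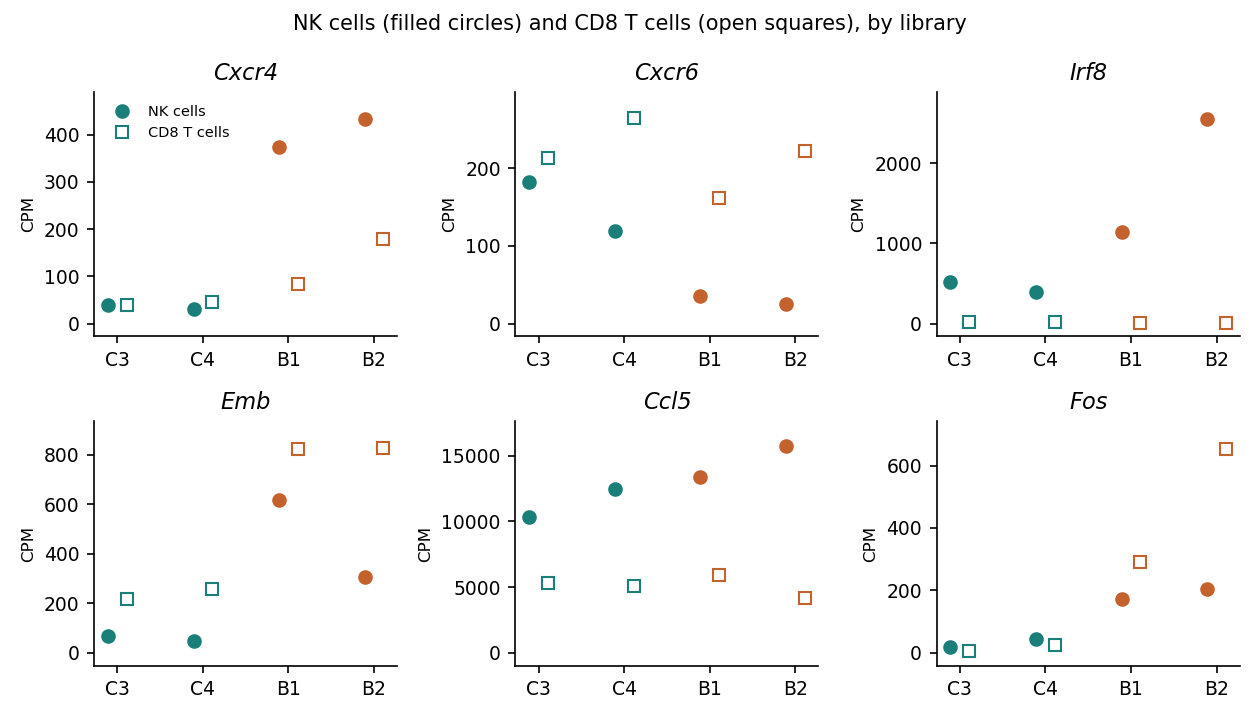
Level in CPM of 6 genes in NK cells (filled circles) and CD8 T cells (open squares) of the 4 libraries in the joint fit (C3 and C4 cortical surface, B1 and B2 bone-associated). Cxcr4 and Irf8 are highest in bone-associated NK cells, and Cxcr6 is low in these cells but not in the CD8 T cells beside them.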

How the data were processed

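Single-cell RNA-seq was measured in 4 cortical surface and 2 bone-associated libraries. The authors deposited filtered gene-by-barcode matrices of UMI counts against mm10 (GRCm38) with 31053 genes and no normalization. The submitters' processing notes name Cell Ranger 3, and the file headers name version 6.1.2. Total counts ranged from 8408685 to 56169736 UMIs per library. Intervals are exact binomial at 95% and, like the floor of 3 UMIs, cover counting error only.

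Kept barcodes had 500 genes or more and no more than 10% mitochondrial UMIs, NK cells were chosen by markers, and their counts were summed per library. Libraries with at least 10 NK cells were fitted with edgeR 4.0.16 in R 4.3.3 (TMM, quasi-likelihood test, Benjamini-Hochberg adjustment) over genes detected in over 10% of NK cells of either preparation. Calls needed an adjusted p below 0.05 and an absolute log2 fold change of 1.3. Levels are CPM of UMIs other than hemoglobin. T cells held at least 2 of 3 Cd3 genes, CD8 T cells also Cd8a or Cd8b1 and no Cd4, and endothelial cells at least 3 of 5 endothelial genes. No doublet caller was run, and cells with genes of another cell type were left out as an alternative. DESeq2 1.42.0 was an alternative, and scripts were tested on simulated data.

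Genes named were the 10 largest non-overlapping changes a direction with at least 30 UMIs in the higher preparation, called list members, the 3 of highest mean CPM in each of 8 lists, 9 fixed genes, and the 5 largest interactions. The design allowed up to 5 of highest CPM a list. Some genes that this rule names are not reported here. Other interaction genes, and the genes used to check labels, were named after their values were seen. The members and lists were chosen with earlier results of these data known. Promoters came from RefSeq (GRCm38.p6) and coordinates from a GENCODE annotation of GRCm38.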

Additional observations from a re-analysis of the deposited data

Results flagged for a closer look

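Among the 4 cortical surface libraries, 1 library lay far from the other 3 in 11 of 108 sets of values tested, where chance gives about 1 in 20. Library 2 was the high one for Klf4 (152 CPM), Nr4a2 (250 CPM), Car2 (170 CPM), Irf8 (1169 CPM), Fos (999 CPM), Fosb (250 CPM), Dusp1 (651 CPM) and Ier2 (616 CPM). It holds 9 NK cells. Library 1, with 7 NK cells, was the high one for Cdkn1a (59.6 CPM) and Srgn (1272 CPM), and library 4 for Sdc4 (44.9 CPM).

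The difference between the preparations itself differed between NK cells and CD8 T cells for 28 genes, by the interaction test in edgeR. The differences of log2 fold changes, NK minus CD8, were 10.37 for Myl9, 8.74 for Mgp, 7.81 for Tpm2, 6.99 for Sdc4 and 5.67 for Igfbp7. They were -2.06 for Cxcr4, -2.89 for Fcer1g, -1.86 for Stmn1, -1.84 for Klre1, -5.28 for Klra7, -4.71 for Irf8, -0.52 for Ccl5 and -1.27 for Emb. They were 4.16 for Tmem176b, 2.89 for Tmem176a, 3.22 for Apoe, 3.39 for Trdc, 1.96 for Cxcr6, 2.17 for Fos and 2.52 for Hspa1a. Of these 20 genes, Klra7 kept its call with each library left out but not against all T cells, and Myl9 and Igfbp7 had no value without bone-associated library 2.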

How the results depend on the processing

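The fitted comparison rests on 2 libraries a side, 1 library holds 25 NK cells, and genes of a few UMIs are limited by depth. Preparation, sex makeup and red cell content cannot be told apart in it. The main count of 440 called genes moved to 163 in DESeq2, 153 and 237 with cells thinned to 1500 and 3000 UMIs, 219 with all 6 libraries, 97 with cortical surface libraries 1 and 2 alone, and 262 in NK cells with a Xist UMI. The replicate block over all 6 libraries gave 80. The numbers 1 and 2 are shared between preparations, and deviations from the group means correlated by 0.099 and 0.043 over 5812 genes. With 2 bone-associated libraries their deviations mirror each other, and the cortical surface partners hold fewer than 10 NK cells each. Whether libraries of the same number share more than the number therefore cannot be told. With a library left out the count ranged from 264 to 581. The share of calls higher in the cortical surface libraries, 21.8%, was 43.1% without bone-associated library 2, 33.8% with the block and 14.1% in Xist cells. Of the 77 called genes that the naming rule gives, 41 kept their call with each library left out, and Ddx3y, Ikzf2 and C1qb had no value without 1 of the libraries. The interaction count of 28 was 44 with no detection minimum, 36 against all T cells (10 of them among the 28) and 21 to 26 with a library left out, and without bone-associated library 2 only 8 of 21 were more cortical in NK cells. With a library left out, the difference in NK share of kept cells ranged from -1.13 to 0.00943 percentage points, turning positive without cortical surface library 2. The share of NK and T cells ranged from 6.80 to 11.04, the median UMIs from 754.75 to 2007, and the immediate-early share from -0.80 to -0.28. Of 122 gene results, 90 kept their direction in every alternative that tested them. A replicate block was planned, but the 4 libraries fitted share no number. Fitting all 6 libraries, with the block or without it, the fits of cells with at most 5% hemoglobin and of Xist cells, and the left-out libraries for depth and immediate-early share, were chosen after seeing the data. The cause of these changes was not tested. Reversed log2 fold changes with the replicate block over all 6 libraries were Hba-a1 -4.28, Hbb-bs -6.75, Hba-a2 -5.54, Hbb-bt -4.72, Bpgm -0.87, Zeb2 -0.25, Ly6c2 -1.10, Rgs1 0.18, Fos 1.41, Fosb 0.11, Egr1 0.19, Dusp1 0.55, Atf3 1.33, Nfkbiz 0.0041, Cd28 0.61, Acta2 1.05, Tyrobp -0.36, Fcer1g -0.13, Id2 -0.035, Ccl4 0.31, Xcl1 0.20 and Itgam -0.68. Reversed log2 fold changes with cortical surface libraries 1 and 2 alone were Hbb-bs -6.44, Hba-a2 -5.22, Bpgm -0.90, Zeb2 -0.33, Ly6c2 -1.14, Rgs1 0.066, Fos 1.50, Fosb 0.020, Egr1 0.057, Dusp1 0.58, Atf3 1.20, Cd28 0.47, Acta2 0.87, Tyrobp -0.51, Fcer1g -0.28, Id2 -0.17, Xcl1 0.093 and Itgam -0.82. Others were Fos 0.49, Xcl1 0.055 and Itgam -0.13 with all 6 libraries and no block, Nkg7 0.019, Tbx21 0.062 and Ifng -0.21 without doublet-like cells, Nkg7 0.13, Id2 -0.046 and Tbx21 0.37 thinned to 1500 UMIs, Bpgm -0.97 and Nkg7 0.011 in NK cells with at most 5% hemoglobin. Others were Nkg7 0.071 and Tbx21 0.020 with upper-quartile normalization, Itgam -0.026 and Sdc4 1.29 with at least 3 markers, Itgam -0.076 and Ifng -0.076 without cells holding any of 5 more T cell genes, Nkg7 0.032 with filterByExpr. Others were Nkg7 0.0092 without hemoglobin genes, Id2 -0.028 thinned to 3000 UMIs, Ifng -0.014 with no detection minimum, Ifng -1.05 in NK cells with a Xist UMI. The last was Igfbp7 0.045 in DESeq2. The results that reversed with a library left out ranged over Dusp2 -2.30 to 0.51, Klra7 -1.03 to 0.23, Nkg7 -0.11 to 0.20, Ctsw -0.0080 to 0.30, Id2 -0.29 to 0.80, Ccl4 -0.93 to 0.89, Xcl1 -0.54 to 0.091, Tbx21 -0.23 to 0.15, Itgam -0.45 to 0.27, Ifng -0.54 to 2.48, Sdc4 -1.08 to 0.61, Sdc4 -0.86 to 8.76 (difference from CD8 T cells) and Apoe -0.14 to 5.23 (difference from CD8 T cells).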
